A study of Mus musculus with 3 samples.

Results

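MHC class I presents peptides on the cell surface, and 10 of its genes were examined in single-cell RNA sequencing of regenerating mouse muscle, namely H2-K1, H2-D1, H2-T23, B2m, Tap1, Tap2, Tapbp, Nlrc5, Psmb8 and Psmb9. They were taken by gene symbol and are 10 of the 32285 features in the files, of which 25295 were detected in the cells kept. Tibialis anterior muscle of C57BL/6J mice was injured with barium chloride (BaCl2), and cell suspensions were collected 4 days later. Young PBS mice were 3 to 4 months old and old PBS mice 24 to 26 months old, and both were given 3 intramuscular injections of phosphate-buffered saline, immediately, 24 h and 48 h after injury. Old rMETRNL mice were 24 to 26 months old and were given 0.1 µg of recombinant meteorin-like protein, a cytokine secreted by macrophages and muscle, on the same schedule. The dose is that of the study's results, while its methods section states 0.1 ng, which was not settled here. All 3 groups were injured, so no uninjured muscle was measured. Each group was 1 library that pooled 3 muscle samples, and there were no replicates. No test between groups was therefore possible. Every interval below is a 95% interval that covers counting error only, and a difference beyond it holds for these libraries, with the spread between animals unknown.

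MHC class I molecules show peptides from inside the cell to CD8 T cells and natural killer (NK) cells. A heavy chain (H2-K1 and H2-D1 encode the classical ones, H2-T23 the non-classical Qa-1) pairs with β2-microglobulin, the product of B2m. The peptides are cut by the proteasome, in which interferon-γ exchanges the constitutive catalytic subunits for inducible ones such as Psmb8 and Psmb9, the immunoproteasome. Tap1 and Tap2 form the pump that carries peptides into the endoplasmic reticulum, and tapasin (Tapbp) holds the empty heavy chain beside it for loading. Nlrc5 is the transactivator of class I genes and is itself induced by interferon. Class I is kept low in muscle fibres at rest, is induced in inflamed muscle, and is high on haematopoietic cells.

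Of the 10 genes, 8 lie on chromosome 17, in the MHC, between positions 33915899 and 36032855 (GRCm38, GENCODE M21). B2m is on chromosome 2 (122147686 to 122153083, plus strand) and Nlrc5 on chromosome 8 (94434356 to 94527272, plus strand). Tap1 (34187553 to 34197225, plus strand) and Psmb9 (34181987 to 34187764, minus strand) are divergent neighbours whose annotated ends overlap. Tapbp overlaps Zbtb22 on the same strand, so that reads of that overlap are uncertain. H2-K1, H2-D1 and the H2-Q genes are near-identical paralogs, and reads that fit several of them could be split or lost by the counting.

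Promoters were read from RefSeq (GRCm38.p6), which held the 250 bases before the start of 8 of the 10 genes. Tap2 and Nlrc5 had no entry. The H2-K1 and B2m promoters are shown because these genes lie on different chromosomes and carry the same arrangement of the letters of an X2-box or CRE core (TGACG) and of a reversed CCAAT box (ATTGG), 20 bases apart. In both, capitals mark TGACG and ATTGG. In H2-K1 they also mark the NF-kB-like motif GGGATTCCC and the reverse complement of the interferon regulatory factor (IRF)-like motif GAANNGAAA. The H2-K1 stretch is chr17:34000348-34000597, minus strand, and the B2m stretch is chr2:122147437-122147686, plus strand.
H2-K1: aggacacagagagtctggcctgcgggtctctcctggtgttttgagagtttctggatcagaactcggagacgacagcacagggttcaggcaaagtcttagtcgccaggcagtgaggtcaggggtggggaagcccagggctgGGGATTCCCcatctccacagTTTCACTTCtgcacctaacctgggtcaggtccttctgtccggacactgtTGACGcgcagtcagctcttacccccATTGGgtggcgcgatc
B2m: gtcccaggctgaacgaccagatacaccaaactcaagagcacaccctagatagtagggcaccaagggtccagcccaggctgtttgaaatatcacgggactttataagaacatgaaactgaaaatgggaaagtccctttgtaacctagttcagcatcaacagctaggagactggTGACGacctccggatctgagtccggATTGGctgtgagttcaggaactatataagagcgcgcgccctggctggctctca

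The element from TGACG to ATTGG is shown for the 3 genes that hold it, since it is what their promoters share across 2 chromosomes. The H2-D1 element is at chr17:35262993-35263022, plus strand, and the capitals mark the same motifs.
H2-K1: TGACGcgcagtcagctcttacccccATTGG
H2-D1: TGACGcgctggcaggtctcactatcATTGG
B2m: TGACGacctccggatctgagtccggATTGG
H2-K1 and H2-D1 were identical at 23 of these 30 bases, H2-K1 and B2m at 13, and H2-D1 and B2m at 12, counts that include the 10 motif bases, which are the same by the choice of the element. Of 32851 RefSeq promoters of the same length, searched on both strands, 0.381% held TGACG followed by ATTGG 15 to 25 bases on, an arrangement chosen after these sequences had been read. CCAAT alone was in 33.8% of the promoters and in 7 of the 8 searched here, and TGACG in 17.8% and in 5 of the 8. The NF-kB-like motif was in 0.301% of all promoters and the IRF-like motif in 6.31%, each in H2-K1 and H2-D1 among the 8. Only these exact letters and spacings were searched. Related letters with another spacing, such as gaaactgaaa and gggaaagtccc in the B2m stretch above, were not counted, so B2m is not shown to lack such elements. A motif TTCNNNGAA, like a STAT binding site, was in 7.02% of all promoters and, among the 8, in Psmb8 alone. In the stretch from the NF-kB-like to the IRF-like motif, both included, the 2 classical heavy chains differed at 1 base of 29. That is why both are shown, with those motifs in capitals. The fixed letters of the motifs are the same by the choice of the stretch. The H2-D1 stretch is at chr17:35262924-35262952, plus strand.
H2-K1: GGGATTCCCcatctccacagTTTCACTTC
H2-D1: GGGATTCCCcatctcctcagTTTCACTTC
A motif here is a match of letters, not a shown binding site.

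The files held 38748 cell barcodes, 12168 to 14012 per library, with 179295668 to 228966697 UMIs (unique molecular identifiers, each standing for 1 captured RNA molecule). The 3 libraries shared 58 to 80 barcodes per pair. After filtering, 31882 cells were kept, and the 10 genes gave 4099945 UMIs in them, 0.795% of all UMIs (young PBS), 0.771% (old PBS) and 0.703% (old rMETRNL). Cells were clustered without the 10 genes and named from marker lists, with the ending "-like" because the names rest on transcripts alone. Levels are CPM, the counts of a gene per 1000000 UMIs of the class in that library. Each of 8 classes had at least 100 cells in every library, 29521 cells in all. Macrophage/monocyte-like cells numbered 6119, 5884 and 6647, where the first value is always that of young PBS and the last that of old rMETRNL. Fibro/adipogenic progenitor (FAP)-like cells, the matrix-making stromal cells of muscle, numbered 1378, 1125 and 1436, and endothelial-like cells 648, 916 and 974. All listed markers of its own class were detected in at least 10% of the cells of these 3 classes, 13 of 13, 12 of 12 and 11 of 11.

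Across cell classes, the 10 genes were lowest in the muscle lineage. H2-K1 stood at 2132, 1802 and 1678 CPM in macrophage/monocyte-like cells, at 647, 700 and 590 CPM in FAP-like cells and at 105, 97.0 and 97.1 CPM in MuSC/myoblast-like cells, the muscle stem cells and their dividing progeny. In each library H2-K1 was thus 17.3 to 20.2 times as high in macrophage/monocyte-like as in MuSC/myoblast-like cells and 6.07 to 7.22 times as high in FAP-like cells. For all 10 genes the class with the lowest median over the libraries was either the MuSC/myoblast-like or the myocyte/fibre-like class. This count was 2 under a stricter cell filter and with doublet calls kept. The myoblast cluster stayed unnamed under both settings, and its part in the lower count was not tested. Macrophage markers summed to 549, 393 and 494 CPM in the MuSC/myoblast-like class against 27753, 25058 and 26114 CPM in macrophages, and FAP markers to 1207, 1313 and 1071 CPM. Their part in these low levels was not tested.

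The order of the higher classes differed from gene to gene. H2-K1 was highest in T/NK-like cells, at 2890, 2920 and 2594 CPM, and this range did not overlap that of any other class. Endothelial-like (1687 to 2267 CPM), dendritic-like (1629 to 2076 CPM) and macrophage/monocyte-like cells overlapped in H2-K1. B2m was highest in macrophage/monocyte-like cells, at 4349, 3912 and 3782 CPM, and Tapbp too, at 324, 275 and 261 CPM. The proteasome genes were highest in dendritic-like cells, the specialists of antigen presentation, with Psmb8 at 878, 714 and 825 CPM and Psmb9 at 390, 292 and 359 CPM. H2-T23 was also highest there, at 629, 447 and 529 CPM. Nlrc5 was highest in T/NK-like cells, at 33.5, 38.8 and 42.9 CPM, then in dendritic-like cells, at 25.5, 31.9 and 27.9 CPM, and was near its limit in myocyte/fibre-like cells, at 0.541, 1.53 and 1.57 CPM.

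The subunits of the TAP pump differed in their range between classes. Tap2 stood at 59.3, 47.2 and 53.0 CPM in macrophage/monocyte-like cells and at 40.0, 27.5 and 33.6 CPM in MuSC/myoblast-like cells, a fold of 1.48 to 1.72. Its median over the libraries was highest in endothelial-like cells, at 136, 123 and 99.8 CPM, which overlapped dendritic-like cells at 88.5, 95.3 and 103 CPM. Its partner Tap1 was 4.71 to 6.77 times as high in macrophage/monocyte-like as in MuSC/myoblast-like cells, and stood at 7.57, 6.90 and 4.33 CPM in the myocyte/fibre-like class. In that class Tap2 held 28.9, 12.7 and 25.6 CPM. The myocyte/fibre-like class had 117, 465 and 181 cells with median UMI counts of 29493, 2212 and 3154, and erythroid markers reached 4200 CPM in old PBS, so its libraries are not alike in make-up and no ratio between them is given.

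**Figure D1:**
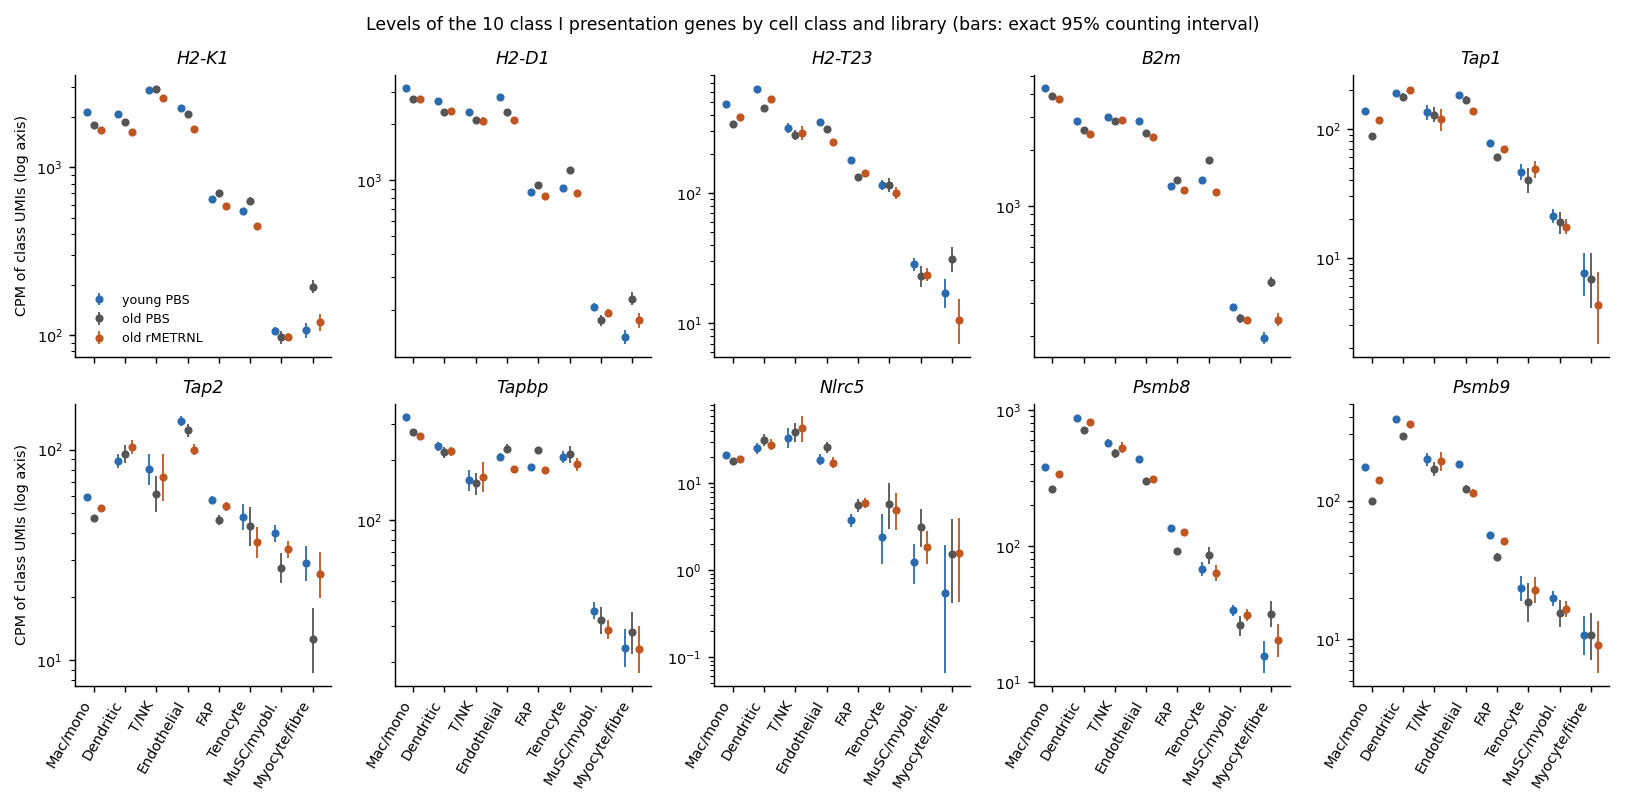
Level of each of the 10 genes (CPM of all UMIs of the class, log axis) in 8 cell classes, with 1 point per library (young PBS blue, old PBS grey, old rMETRNL orange) and bars for the exact 95% counting interval. Each gene is lowest at the right, in the MuSC/myoblast-like or myocyte/fibre-like class, and Tap2 spans the smallest range between macrophage/monocyte-like and MuSC/myoblast-like cells.

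In the age comparison (old PBS over young PBS), which asks how presentation genes differ in injured muscle of old mice, all 10 genes were lower in the old library in macrophage/monocyte-like cells, with ratios from 0.572 to 0.900 and intervals below 1 for 10 of 10. A feature was counted as higher or lower past the size rule when its CPM was at least 25% higher, or at least 20% lower, than in the other library and its interval left out 1, among features with at least 50 UMIs over the 3 libraries. By this rule 5 of the 10 were lower and 0 higher, while 12.4% of the 14330 features tested were lower and 12.4% higher. The median log2 ratio of the 10 was -0.29, beside -0.00 over all features. In this class T/NK markers summed to 136, 230 and 169 CPM, B cell markers to 157, 94.0 and 120 CPM and myocyte markers to 75.0, 141 and 80.0 CPM. Erythroid and FAP marker sums are given further below. The part of these in the ratios was not tested. A rule of size on 2 libraries is no replicate check.

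The peptide-cutting and peptide-pumping genes differed most. Psmb9 stood at 175 CPM in young PBS and 99.8 CPM in old PBS, a ratio of 0.572 (0.558 to 0.586). Tap1 stood at 138 and 88.6 CPM (0.640, 0.623 to 0.657), and Psmb8 at 384 and 261 CPM (0.680, 0.669 to 0.691). Tap2 just met the rule, at 59.3 and 47.2 CPM (0.796, 0.765 to 0.827), and was 0.862 with the weights of the sub-clusters held equal between libraries, short of it. Of the heavy chains, H2-T23 met it, at 486 and 339 CPM (0.698, 0.688 to 0.707). The classical chains were 0.845 (H2-K1) and 0.874 (H2-D1) of the young level, B2m 0.900, Tapbp 0.850 and Nlrc5 0.864, all short of the rule. Apart from H2-T23, the genes that make and move peptides thus differed more between the old and young libraries than those of the surface complex.

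In FAP-like cells the set split. Macrophage markers in this class summed to 196, 226 and 236 CPM, pericyte or smooth muscle markers to 304, 155 and 195 CPM and myocyte markers to 31.4, 95.3 and 43.5 CPM, and their part in its ratios was not tested. Psmb8 (137 and 92.4 CPM, ratio 0.677), Psmb9 (56.1 and 39.1 CPM, 0.697), H2-T23 (180 and 132 CPM, 0.731) and Tap1 (78.3 and 60.6 CPM, 0.773) were lower in old PBS past the rule, 4 of 10 against 17.4% of 13909 features. Nlrc5 was higher, at 3.74 and 5.63 CPM (1.5, 1.18 to 1.92), 1 of 10 against 13.1%. H2-K1 (1.08), H2-D1 (1.09), B2m (1.07) and Tapbp (1.21) were slightly higher in old PBS with intervals above 1, and Tap2 was 0.80 of young, just outside the rule. The median log2 ratio of the 10 was -0.11, beside -0.05 over all features. With the weights of the FAP sub-clusters held equal between libraries, an alternative added after the data were seen, H2-K1 was 0.980, H2-D1 0.970, B2m 0.980 and Nlrc5 1.09 of young, so that the slight excess of the surface chains was not kept and that of Nlrc5 fell short of the rule.

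In endothelial-like cells Psmb8 stood at 434 and 300 CPM (0.692, 0.656 to 0.730) and Psmb9 at 185 and 121 CPM (0.654, 0.601 to 0.711), 2 of 10 lower past the rule against 17.3% of 11761 features. Nlrc5 was higher, at 18.7 and 26 CPM (1.39, 1.13 to 1.72), 1 of 10 against 14.3%. H2-K1 (0.921), H2-D1 (0.836), H2-T23 (0.879), B2m (0.865), Tap1 (0.923) and Tap2 (0.904) had intervals below 1 and did not meet the rule, and Tapbp was 1.10. The median log2 ratio was -0.16, beside -0.04 over all features. The class had median UMI counts of 11402.5, 3955 and 7231 per cell, and its macrophage markers summed to 596, 1000 and 897 CPM, its FAP markers to 1778, 1658 and 1615 CPM and its erythroid markers to 23, 178 and 432 CPM. Its myocyte markers summed to 38.6, 288 and 78.6 CPM and its pericyte or smooth muscle markers to 1043, 1435 and 1242 CPM. The part of these in its ratios was not tested. In the 132 to 135 cells left by a strict marker gate, and as a mean over cells, Nlrc5 was 0.607 and 0.995 of young, so that its direction depends on the choice of cells and of weight per cell. Psmb8 and Psmb9 were the 2 genes lower past the rule in old PBS in all 3 classes, but with cells thinned to 2000 UMIs the endothelial ratio of Psmb8 was 0.807, short of it.

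In the treatment comparison (old rMETRNL over old PBS), which asks how the injected protein changed old muscle, 3 of the 10 genes were higher past the rule in macrophage/monocyte-like cells and 0 lower, against 12.8% and 7.66% of all features. With the weights of the sub-clusters held equal between libraries, Psmb9 alone met the rule. The 3 genes were Psmb9 (99.8 and 142 CPM, ratio 1.42, 1.38 to 1.45), Tap1 (88.6 and 118 CPM, 1.33, 1.3 to 1.37) and Psmb8 (261 and 340 CPM, 1.3, 1.28 to 1.32). H2-T23 (1.13) and Tap2 (1.12) were higher short of the rule, as was Nlrc5 (1.04, 0.978 to 1.11), whose interval spans 1. The abundant surface chains and tapasin went the other way by small amounts, with H2-K1 at 0.931, H2-D1 at 0.989, B2m at 0.967 and Tapbp at 0.949 of old PBS. The median log2 ratio of the 10 was 0.11, beside 0.05 over all features. Both comparisons share the old PBS library, so a high or low value in it moves them in opposite directions and they are not independent. Set directly against young PBS, old rMETRNL macrophage/monocyte-like cells were lower for all 10 genes, from 0.787 (H2-K1) to 0.900 (Nlrc5), with Tap1 at 0.853, Psmb8 at 0.886 and Psmb9 at 0.811.

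In FAP-like cells Psmb8 (92.4 and 126 CPM, 1.37, 1.3 to 1.44) and Psmb9 (39.1 and 51.2 CPM, 1.31, 1.21 to 1.42) were higher in old rMETRNL, 2 of 10 against 11.0% of features, and 0 were lower against 9.41%. Tap1 and Tap2 were both 1.16 of old PBS. The count higher was 1 under a stricter cell filter, with 2 then lower, 4 as a mean over cells and 5 with sub-cluster weights held equal, where H2-T23 went from 1.08 to 1.26. Tapbp, at 223 and 178 CPM, was 0.80, just outside the rule. H2-K1 (0.843), H2-D1 (0.871) and B2m (0.889) were lower in old rMETRNL with intervals below 1. The median log2 ratio was 0.09, beside 0.01 over all features, and was -0.0323 under the stricter cell filter. As in macrophages, the proteasome genes were higher and the abundant surface chains lower in the same library.

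In endothelial-like cells 0 of the 10 were higher past the rule against 14.1% of features, and 3 were lower against 10.4%, namely Nlrc5 (26 and 17.3 CPM, 0.666, 0.540 to 0.823), Tapbp (227 and 179 CPM, 0.788) and H2-T23 (309 and 247 CPM, 0.799). H2-K1 (2086 and 1687 CPM, 0.809), Tap2 (0.809) and Tap1 (0.824) were close to the rule. Psmb8, at 300 and 309 CPM, was 1.03 of old PBS and Psmb9, at 121 and 114 CPM, 0.942, with intervals that span 1, though with cells thinned to 2000 UMIs Psmb9 was 1.28 and Tap1 1.04, and the highest value of Psmb9 over the alternatives was 1.46. The median log2 ratio was -0.29, beside 0.04 over all features. It was 0.0045 under the marker gate, -0.08 as a mean over cells and -0.04 with cells thinned to 2000 UMIs, so the lower endothelial level in old rMETRNL depended on which cells were taken and how they were weighted. Against young PBS, the ratios of the 10 in old rMETRNL endothelial-like cells ran from 0.616 to 0.928.

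**Figure D2:**
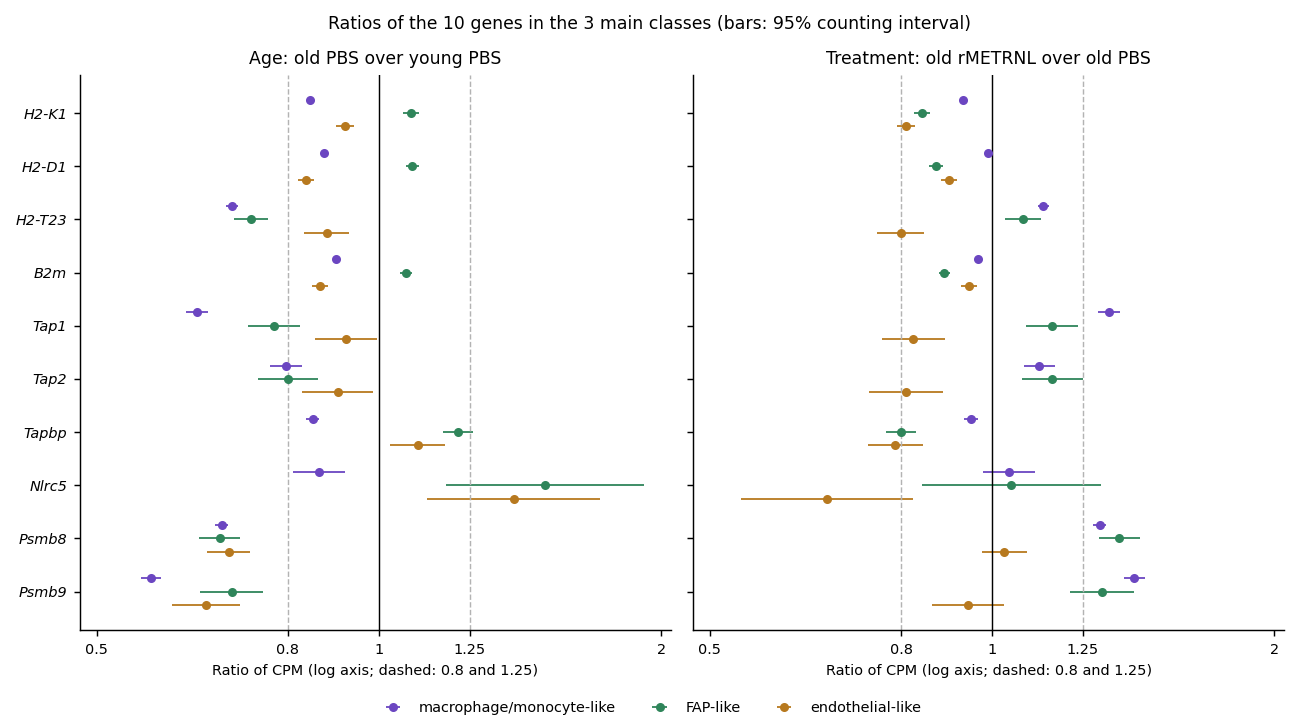
Ratio of CPM of each of the 10 genes (log axis) for age (left) and treatment (right) in macrophage/monocyte-like (purple), FAP-like (green) and endothelial-like cells (brown), with bars for the 95% counting interval and dashed lines at the limits of the size rule. In the left panel Psmb8 and Psmb9 lie below the lower limit in all 3 classes, and in the right panel they lie above the upper limit in macrophage/monocyte-like and FAP-like cells but near 1 in endothelial-like cells.

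The other classes had fewer cells, and their ratios are given as ranges. Dendritic-like cells (629, 359 and 648 cells) had age ratios from 0.711 (H2-T23) to 1.248 (Nlrc5) and treatment ratios from 0.875 (H2-K1) to 1.23 (Psmb9). T/NK-like cells (211, 188 and 123 cells) had age ratios of 0.764 to 1.16 and treatment ratios of 0.888 to 1.20. MuSC/myoblast-like cells (380, 187 and 391 cells) had age ratios from 0.686 (Tap2) to 2.56 (Nlrc5, at 1.22 and 3.13 CPM) and treatment ratios from 0.592 (Nlrc5) to 1.22 (Tap2). In tenocyte-like cells (190, 119 and 206 cells) the ratios ran from 0.798 to 2.38 for age and from 0.674 to 1.22 for treatment, with Nlrc5, the highest for age, under the minimum of UMIs. H2-D1 stood at 905, 1137 and 848 CPM there, and B2m at 1383, 1767 and 1190 CPM. Macrophage markers summed to 1005, 2587 and 1122 CPM in this class and MHC class II genes to 349, 1289 and 406 CPM, highest in old PBS as H2-D1 and B2m were, and their part in these values was not tested. Summed over all kept cells without regard to class, B2m was 1.02 and H2-K1 0.967 of young in old PBS, against 0.900 and 0.845 within macrophage/monocyte-like cells, so that the whole suspension and its main class gave different values.

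The exchange of proteasome subunits was followed as the share of the inducible subunit among the UMIs of the pair that takes 1 place in the particle, which does not depend on the total of the class. Psmb8 made up 73.6%, 67.0% and 69.9% of Psmb8 and Psmb5 UMIs in macrophage/monocyte-like cells (intervals 73.2 to 74.0%, 66.6 to 67.5% and 69.5 to 70.3%). Psmb9 made up 34.9%, 22.4% and 28.9% of Psmb9 and Psmb6. Psmb10, the third inducible subunit, made up 63.3%, 56.3% and 58.6% of Psmb10 and Psmb7. For each of the 3 pairs the macrophage/monocyte-like share was highest in young PBS, lowest in old PBS and between them in old rMETRNL.

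In FAP-like cells Psmb8 made up 51.1%, 47.7% and 49.7% of its pair, Psmb9 27.1%, 25.3% and 26.2% and Psmb10 55.1%, 49.7% and 50.3%. Young PBS lay above old PBS with intervals apart for Psmb8 and Psmb10, while the Psmb9 intervals overlapped, and those of old PBS and old rMETRNL overlapped for all 3 pairs. The constitutive counterparts of Psmb8 and Psmb9 differed in the same direction as they did in FAP-like cells, since Psmb5 was 0.777 and Psmb6 0.763 of young in old PBS, and 1.26 and 1.252 of old PBS in old rMETRNL. In macrophage/monocyte-like cells, Psmb6 stood at 325, 347 and 348 CPM and Psmb5 at 138, 129 and 147 CPM, and neither met the rule. In endothelial-like cells the shares were 72.7%, 71.0% and 64.2% for Psmb8, 49.3%, 45.1% and 38.7% for Psmb9 and 54.2%, 49.6% and 49.5% for Psmb10. Old rMETRNL was lowest for Psmb8 and Psmb9, and for Psmb10 the intervals of the 2 old libraries overlapped. Over the 3 classes and 3 pairs, the share was lower in old PBS than in young PBS in 9 of 9, with intervals apart in 7, and higher in old rMETRNL than in old PBS in 6 of 9, with intervals apart in 3. Over the 9 alternatives that could give these counts, the first ran from 8 to 9 and the second from 5 to 9. At 9 of 9 all endothelial-like shares were higher in old rMETRNL than in old PBS, so their order depended on the setting. Over all 8 classes the share was lower in old PBS in 17 of 24, with intervals apart in 8 and apart in the other direction in 2, and higher in old rMETRNL in 16 of 24, with intervals apart in 4 and apart in the other direction in 3. These counts include the 3 pairs of the myocyte/fibre-like class, whose libraries were not alike in make-up, and its Psmb8 share is 1 of the 2 apart in the other direction for age.

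The inducible shares also set the immune classes apart from muscle. In dendritic-like cells Psmb8 made up 85.1%, 84.0% and 85.4% of its pair, and in MuSC/myoblast-like cells 10.6%, 8.43% and 9.58%. Psmb9 made up 65.2%, 59.0% and 66.7% in dendritic-like cells and 5.56%, 4.84% and 5.11% in MuSC/myoblast-like cells. Tenocyte-like cells lay between, with Psmb8 at 33.6%, 44.5% and 37.3%. In T/NK-like cells the Psmb8 shares of 72.9%, 74.4% and 77.2% had overlapping intervals between neighbours, so that no order of the libraries was resolved at 123 to 211 cells.

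**Figure D3:**
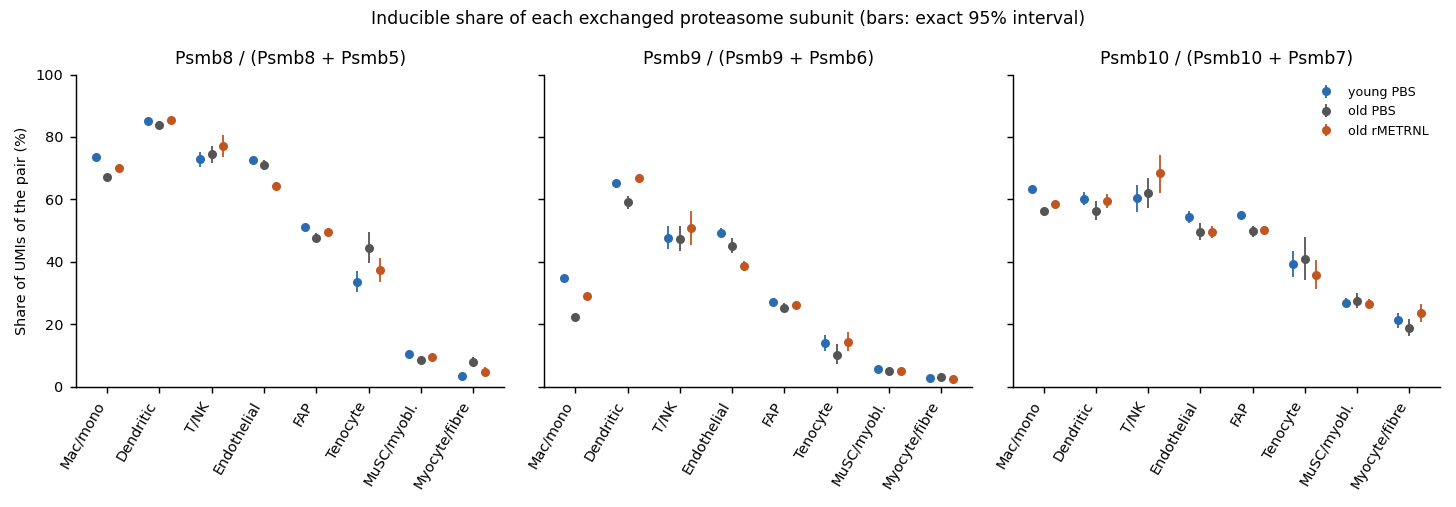
Share of UMIs of the inducible subunit in each of 3 exchanged pairs (percent, linear axis from 0 to 100) by cell class, with 1 point per library (young PBS blue, old PBS grey, old rMETRNL orange) and bars for the exact 95% binomial interval. Shares are lowest in the MuSC/myoblast-like and myocyte/fibre-like classes in each panel, and in macrophage/monocyte-like cells old PBS is lowest in each panel, with Psmb9 at 34.9%, 22.4% and 28.9%.

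The rest of the pathway was read from fixed lists, chosen with earlier results of these data known. Interferons act through receptors and factors such as Stat2 and Irf9 on interferon-stimulated genes, a list of 18. In macrophage/monocyte-like cells 16 of 18 were lower and 0 higher in old PBS past the rule (median log2 ratio -1.16), led by Ifit3 (181 and 46.2 CPM, 0.255), Ifi44 (0.309), Ifit2 (0.335) and Ifit1 (0.357), which restrain viral RNA or respond to it. In old rMETRNL 14 of 18 were higher and 0 lower than in old PBS (median 0.79), led by Ifit3 (46.2 and 143 CPM, 3.1), Ifit2 (2.38), Usp18 (2.38) and Ifit1 (2.30). Stat2 stood at 73.9, 34.7 and 59.5 CPM, and the list of receptors and signalling had 3 of 13 lower and 2 higher for age (12.4% and 12.4% of all features), and 3 higher and 1 lower for treatment (12.8% and 7.66%). Ifit3, Stat2, Psmb8, Psmb9 and Tap1 had the same order of the 3 libraries here, with young PBS highest and old PBS lowest. Not all genes did, since H2-K1, H2-D1, B2m and Tapbp were lowest in old rMETRNL. Jak2, of the signalling list, was highest in old PBS, at 33.3, 43.0 and 31.9 CPM. Erythroid markers in this class summed to 280, 50.9 and 154 CPM and FAP markers to 713, 460 and 582 CPM, and their part in these values was not tested.

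Outside macrophages the interferon-stimulated genes did not all differ in the same direction. In FAP-like cells 9 of 18 were lower and 2 higher in old PBS, against 17.4% and 13.1% of all features (median -0.37), led by Ifi44 (77.9 and 32.9 CPM, 0.422), Bst2 (0.479), Isg15 (0.537) and Irf7 (0.543). For treatment 7 were higher and 3 lower, against 11.0% and 9.41% (median 0.16), with Ifi44 at 1.67, Isg15 at 1.56 and Irf7 at 1.47, but Irgm1 at 0.617. In endothelial-like cells 8 were higher and 5 lower in old PBS, against 14.3% and 17.3% (median 0.13), among them Ifit1 (518 and 910 CPM, 1.76) and the chemokine Cxcl9 (711 and 1200 CPM, 1.69) upward and Bst2 (0.499) and Ifi44 (0.589) downward. For treatment 1 was higher and 12 lower there, against 14.1% and 10.4% (median -0.44), led by Ifit1 (0.495), Cxcl9 (0.534), Cxcl10 (0.580) and Rsad2 (0.620). Irf1, an interferon-γ-induced activator of class I genes, stood at 359, 700 and 395 CPM in endothelial-like cells, and Socs1, a feedback inhibitor, at 32.9, 92.5 and 45.8 CPM. Old PBS was highest in both.

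The other genes of presentation were also counted by the rule, beside the shares of all features given above for each class. In macrophage/monocyte-like cells, of 10 other class I or class I-like chains tested, 6 were lower and 0 higher in old PBS (median -0.45), led by H2-T24 (0.513), H2-Q7 (0.594), H2-T22 (0.641) and H2-Q6 (0.691), and 2 were higher in old rMETRNL, H2-T24 (1.71) and H2-M3 (1.27). Of 10 genes of peptide supply and loading, 4 were lower and 0 higher in old PBS although the list median was 0.02, and these were Psmb10 (0.701), the proteasome activators Psme1 (0.724) and Psme2 (0.770), and Tapbpl (0.766), a tapasin relative. Of these, Tapbpl (1.28), Psme1 (1.26) and Psmb10 (1.255) were higher in old rMETRNL. In FAP-like cells 3 other class I chains were lower in old PBS and 1 lower in old rMETRNL, and in endothelial-like cells 3 were lower and 1, H2-Q4 (188 and 264 CPM, 1.41), higher in old PBS. For treatment H2-Q4 (264 and 163 CPM, 0.617) and H2-Q6 (0.682) were lower in endothelial-like cells. In the supply list, FAP-like and endothelial-like cells each had 2 lower for age, Psmb10 among them (0.694 and 0.726), and 1 higher for treatment, counts near the shares of all features (17.4% and 17.3% lower for age, 11.0% and 14.1% higher for treatment). H2-Q6 and H2-Q7 carry the paralog doubt stated above.

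MHC class II shows peptides taken up from outside and is driven by Ciita. In macrophage/monocyte-like cells 1 of 7 genes was higher in old PBS, H2-Aa (2067 and 2619 CPM, 1.27), near the 12.4% of all features, and 5 were lower in old rMETRNL (median -0.59), with H2-Aa at 1641 CPM (0.627) and its invariant chain Cd74 at 4793, 5598 and 3724 CPM. In endothelial-like cells 7 of 7 were higher in old PBS (median 0.88), led by Ciita (2.98) and H2-DMb1 (2.03), and 6 were lower in old rMETRNL (median -0.72). In FAP-like cells 2 were higher and 1 lower for age and 3 lower for treatment. Macrophages also express class II, and their markers in the endothelial-like class are given above. Of the factors that bind class I promoters, Nfkb1 stood at 196, 284 and 193 CPM in macrophage/monocyte-like cells and at 365, 544 and 417 CPM in FAP-like cells, and was called higher for age and lower for treatment in both. The list of 9 such factors had 1 higher, near the 12.4% of all features, and 0 lower for age in macrophages, and 0 higher and 2 lower for treatment.

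**Figure D4:**
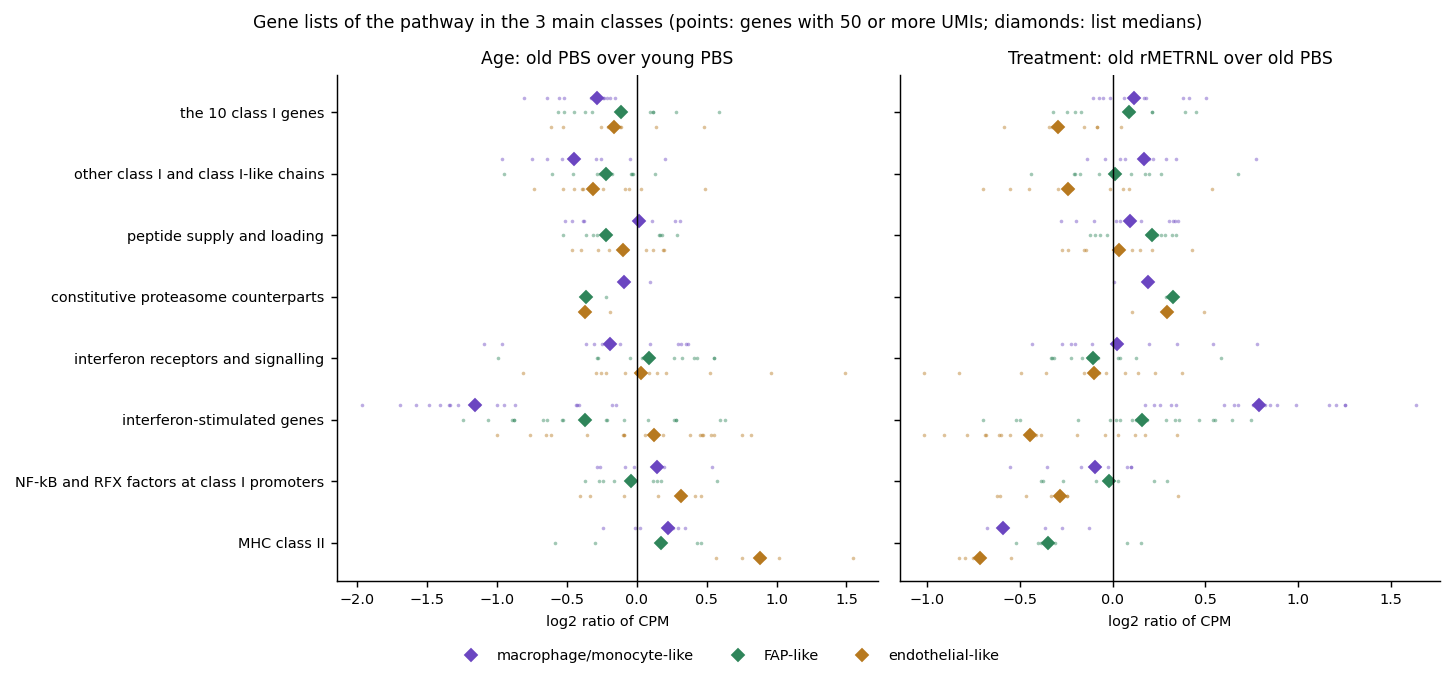
log2 ratio of CPM for age (left) and treatment (right) for the 10 class I genes and 7 related lists in macrophage/monocyte-like (purple), FAP-like (green) and endothelial-like cells (brown), where small points are genes with at least 50 UMIs and diamonds the list medians. The interferon-stimulated genes of macrophage/monocyte-like cells stand furthest left for age (median -1.16) and furthest right for treatment (median 0.79), and the medians of the class I genes lie on the same side of 0 and are smaller (-0.29 and 0.11), with 6 of the 10 genes above 0 for treatment.

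Interferon-γ, a main inducer of class I, was highest in T/NK-like cells. Ifng stood at 152, 102 and 164 CPM there (263, 168 and 141 UMIs) and at 2.74 CPM or less in each other class. Ifnb1, a type I interferon, gave 69, 66 and 54 UMIs in macrophage/monocyte-like cells, or 0.704, 0.668 and 0.483 CPM, with overlapping intervals between neighbours. Transcripts of short-lived cytokines are sparse in such libraries, and no direction was read from these counts. Cells that read class I were also in the T/NK-like class, where the CD8 chain Cd8b1 and the NK receptor Klra7 differed between libraries, at 88.4, 314 and 167 CPM and at 166, 38.2 and 164 CPM. The list of 12 readers of class I summed to similar levels in the T/NK-like class, at 1563, 1522 and 1524 CPM. The class joined a cluster led by the T cell genes Trbc2 and Cd3g (107, 150 and 84 cells) and one led by Gzma, a granzyme of cytotoxic cells, without Cd3e UMIs (104, 38 and 39 cells), so its make-up differed between libraries. Within the first, Cd8b1 stood at 222, 465 and 306 CPM and Ifng at 68.3, 111 and 97.7 CPM (47, 124 and 46 UMIs). Within the second, Klra7 stood at 232, 108 and 258 CPM and Ifng at 207, 82.2 and 243 CPM (216, 44 and 95 UMIs).

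Within a class, the 10 genes varied with the interferon programme of its sub-clusters. Macrophage/monocyte-like cells fell into 12 sub-clusters and FAP-like cells into 8. The macrophage sub-cluster led by Cxcl9 and Ccl5 was above the class for 10 of 10 members (median log2 0.73), with Psmb9 at 311 CPM, Tap1 at 259 CPM and H2-K1 at 2816 CPM. It held 839, 188 and 655 cells of the class, and the sub-cluster led by Hes1, above the class for 9 members, held 1132, 413 and 885 cells, and old PBS had the fewest cells in both. Of the 4 other sub-clusters with most members above the class, old PBS also had the fewest cells in that led by Ly6c2 (639, 549 and 729). It did not in those led by Il10 (794, 804 and 525 cells), Dnase1l3 (525, 892 and 448) and Ednrb (545, 810 and 1090). The sub-cluster led by Atp6v0d2, Cd36 and Fabp4, genes of lipid handling and lysosomes, was above the class for 0 members (median -0.53), with Psmb9 at 71.9 CPM, Tap1 at 60.2 CPM and H2-K1 at 1158 CPM. The macrophage sub-cluster led by Top2a, a gene of dividing cells, had H2-K1 at 1301 CPM but Tap1 at 144 CPM and Psmb9 at 176 CPM, so that surface chain and peptide supply did not rank alike. Among FAP-like cells the sub-cluster led by Cxcl10 and Ifit1 was above the class for 10 of 10 members (median 0.36), and that led by a histone gene and Top2a was lowest (median -0.44). The Cxcl10-led sub-cluster held 214, 363 and 297 cells, the most in old PBS, unlike the Cxcl9-led one of macrophages. The median of the members and that of the interferon-stimulated genes had Pearson's r of 0.933 over the 12 macrophage sub-clusters and 0.855 over the 8 FAP sub-clusters. These are descriptions across clusters of the same cells and libraries, and the interferon-stimulated genes were not left out of the clustering.

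**Figure D5:**
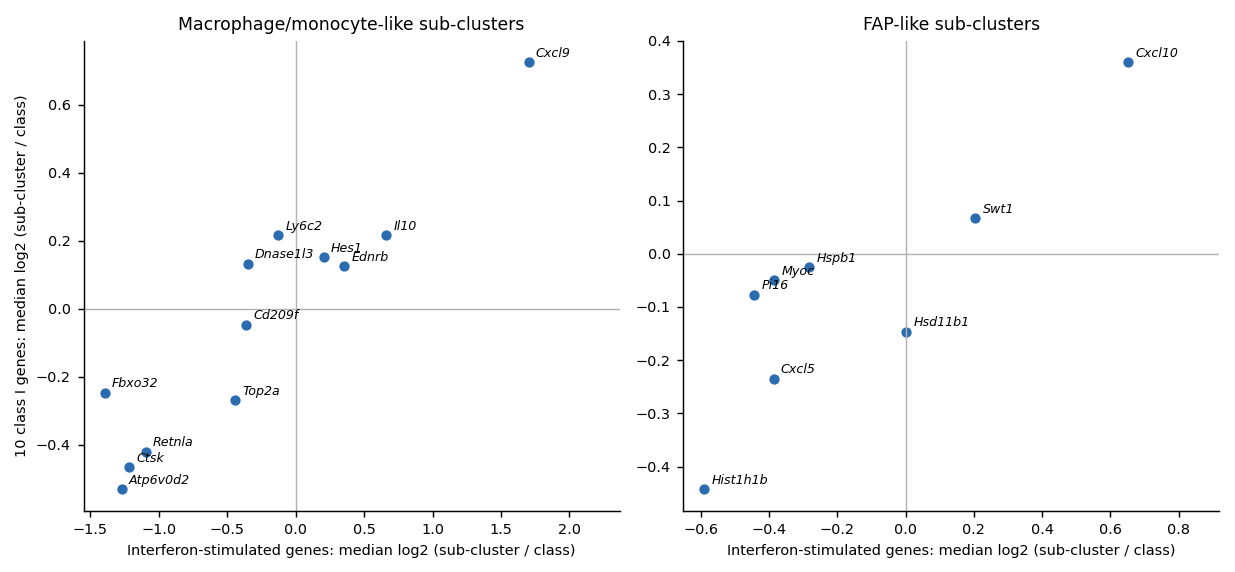
Median log2 level, relative to the whole class, of the 10 class I genes (vertical axis) against that of the 18 interferon-stimulated genes (horizontal axis) in 12 macrophage/monocyte-like (left) and 8 FAP-like (right) sub-clusters, each named by its first leading gene. The sub-clusters led by Cxcl9 (left, 0.73) and Cxcl10 (right, 0.36) are highest on the vertical axis.

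Differences between libraries in Psmb8, Psmb9, H2-T23 and Tap1 in macrophage/monocyte-like cells were also present in most of its sub-clusters. In the 11 macrophage sub-clusters with at least 30 cells per library, the age ratio of Psmb8, Psmb9 and H2-T23 had an interval below 1 in 11 of 11, from 0.631 to 0.836 for Psmb8 and from 0.569 to 0.818 for Psmb9. Tap1 was below 1 in all 11, with the interval below 1 in 9. The age interval was below 1 in 9 for H2-K1, B2m and Tapbp, 8 for H2-D1, 6 for Tap2 and 3 for Nlrc5. It was above 1 in 1 sub-cluster each for H2-K1, H2-D1, B2m and Tap2. For treatment, Psmb8, Psmb9 and Tap1 were above 1 in 11 of 11, with the interval above 1 in 10, 10 and 9. With sub-cluster weights held equal, the age ratios were 0.691 for Psmb9, 0.762 for Tap1 and 0.765 for Psmb8, and the treatment ratios 1.26, 1.20 and 1.22, so that 1 gene, Psmb9, met the rule for treatment. In the 6 FAP sub-clusters of that size the age interval of Psmb8 was below 1 in 5 and its treatment interval above 1 in 4. The age interval of Psmb9 was below 1 in 3 and above 1 in 1, the Pi16-led sub-cluster (1.43, 1.06 to 1.94), and its treatment interval above 1 in 2, while Nlrc5 was above 1 for age in only 3. Sub-clusters are not replicates, since they come from the same libraries.

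Genes most like the members in level were sought over 24 points, the 8 classes in each of 3 libraries, by Pearson's r of log2(CPM + 1) among 11811 features, the members left out. The 5 of these most like H2-K1 were Itpkb (0.984), Ostf1 (0.975), Fxyd5 (0.966), Prr13 (0.958) and Gch1 (0.958), and the 5 of these most like Tap1 were Irf9 (0.975), Adar (0.974), Trim12c (0.961), Trim12a (0.959) and Irf2 (0.954). Of these, Irf9 and Irf2 are interferon regulatory factors, and Adar edits double-stranded RNA and has an interferon-induced form. Among the members themselves, H2-K1 was closest to H2-D1 (0.980) and B2m (0.973) and least like Tap2 (0.802), and Tap1 and Tap2 had 0.901. Points of 1 library share its depth and preparation, and points of 1 class are not independent.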

How the data were processed

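Single-cell RNA was measured in 3 libraries on the 10x Genomics platform. The deposited matrices hold unnormalized UMI counts for each gene in each barcode, made by the authors with Cell Ranger. The submitters' processing notes name Cell Ranger 5.0.0 and 3.1.0 with mm10, the file headers name 5.0.0, and the study's methods name another version, which was not settled here.

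A cell was kept with 500 or more genes and less than 10% of its UMIs mitochondrial. Scrublet, run in scanpy 1.11.5 on each library, marked doublets. The threshold it chose called 172, 0 and 173 cells, so the highest scores were removed at 0.8% per 1000 barcodes (1128, 1187 and 1473 cells). Counts were log-normalized, and 2000 variable genes without the 10 members, 30 principal components and 20 neighbours were used for Leiden clustering at resolution 0.8, without integration. Clusters were named from markers of 14 classes. The naming conditions were revised after the cluster tables had been seen. Sub-clusters led by markers of another class (1855 cells), unnamed cells (46) and named classes under 100 cells in a library (460) were left out.

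UMIs were summed per class and library and expressed as CPM. Levels have exact Poisson, shares exact binomial (Clopper-Pearson), and ratios exact conditional intervals, all at 95%. UMIs limit but do not remove amplification error, and intervals cover counting error only. log2 ratios had 0.5 added to each count. All 10 members are named. From each other list at most 4 genes per class and comparison are named, those with the largest ratio in either direction among the called. The values of a further gene of these lists are not reported here. The members, the lists and these rules were chosen with earlier results of these data known. Of 17 alternatives, 2 were added after the data were seen. Coordinates are from GENCODE M21 (GRCm38, the build mm10), matched by gene ID, and promoters from RefSeq (GRCm38.p6). The scripts were tested on simulated data. Leiden clustering used igraph 0.11.9 through leidenalg 0.10.2, the intervals scipy 1.17.1 and the figures matplotlib 3.10.9, in Python 3.11.15.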

Additional observations from a re-analysis of the deposited data

Results flagged for a closer look

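Nlrc5, H2-T23 and Tap1 had ratios on opposite sides of 1, with intervals that left out 1, in different cell classes, and met the size rule in at least 1 of them. For age, H2-K1, H2-D1, B2m and Tapbp were also on opposite sides in macrophage/monocyte-like and FAP-like cells. They met the rule in neither class and were not flagged. The difference between classes was not tested, since each group had 1 library. For age, Nlrc5 was 0.864 (0.810 to 0.920) in macrophage/monocyte-like cells, 1.504 (1.18 to 1.92) in FAP-like cells and 1.39 (1.13 to 1.72) in endothelial-like cells. For treatment, H2-T23 was 1.13 (1.12 to 1.15) in macrophage/monocyte-like cells and 1.08 (1.03 to 1.13) in FAP-like cells, but 0.799 (0.754 to 0.846) in endothelial-like cells. Tap1 was 1.33 (1.297 to 1.369) for treatment in macrophage/monocyte-like cells and 0.824 (0.762 to 0.890) in endothelial-like cells. With sub-cluster weights held equal, Nlrc5 in FAP-like cells was 1.09 (0.846 to 1.41) for age, an interval that spans 1. The endothelial-like values of Nlrc5 and H2-T23 changed direction with the choice of cells, as given below, and that of Tap1 was 1.04 with cells thinned to 2000 UMIs.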

How the results depend on the processing

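No paired analysis was possible because each group had 1 library. For the same reason no library could be left out. In macrophage/monocyte-like cells all 10 age ratios stayed below 1 under the 16 alternatives that could give them, with Psmb9 from 0.535 to 0.692 and Tap1 from 0.624 to 0.762, and the treatment ratios of Psmb9 (1.26 to 1.53), Psmb8 (1.22 to 1.39) and Tap1 (1.20 to 1.38) stayed above 1. Allowing the members in clustering gave identical numbers of cells in each library of the 3 main classes. Whether any member was then among the variable genes was not recorded, so no effect or lack of effect of the members is read from it. Counts within 1.5 times the reported one, and other values within the interval of the reported one, were taken as unmoved. A value past the rule that turned direction was taken as reversed, so ratios short of the rule that crossed 1, such as macrophage/monocyte-like H2-D1 for treatment (1.05 with cells thinned), are not among the reversed. By this tolerance 283 summary values stayed, 41 moved and 1 reversed, and of single gene ratios 701, 214 and 5 did so. Of the proteasome shares 167 stayed and 76 moved, and no reversal was defined for a share. The causes were not tested.

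The share of all features past the rule was taken for the main setting only. Counts of members under the alternatives therefore have no such share beside them, and whether they are unusual there is not known. At a fold of 1.5 the counts of members lower for age were 2, 0 and 1 in macrophage/monocyte-like, FAP-like and endothelial-like cells, those higher for treatment 0 in macrophage/monocyte-like and in FAP-like cells, and in endothelial-like cells 0 were higher for age and 1 lower for treatment. Under the stricter filter (1000 genes, 5% mitochondrial UMIs), FAP-like cells had 2 higher for age, 1 higher and 2 lower for treatment, and endothelial-like cells 5 lower for treatment. With doublet calls kept the last count was 1. Under both of these settings the myoblast cluster stayed unnamed and 2 members were lowest in a muscle class. With ratios scaled to a median of 0, FAP-like cells had 2 higher for age and 1 lower for treatment, and endothelial-like cells 6 lower for treatment. FAP-like cells also had 1 lower for treatment at resolution 1.6 and with the class total taken without members and mitochondrial genes. At resolution 0.4 the FAP sub-cluster correlation was 0.982.

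The marker gate left 130 to 135 endothelial-like cells per library. There 0 members were higher and 7 lower for age, 1 higher and 0 lower for treatment, the treatment median was 0.0045, and Nlrc5 was 0.607 for age and 1.37 for treatment and H2-T23 1.19 for treatment. FAP-like cells then had 0 higher for age. As a mean of per-cell CPM, which has no interval, FAP-like cells had 0 higher for age and 4 higher for treatment, and endothelial-like cells 0 higher and 4 lower for age and 0 lower for treatment, with a treatment median of -0.081, Nlrc5 at 0.995 for age and H2-T23 at 1.04 for treatment. With cells thinned to 2000 UMIs, which left out 6.02%, 22.4% and 19.2% of endothelial-like cells, FAP-like cells had 0 higher for age and 1 for treatment, and endothelial-like cells 0 higher for age and 1 for treatment, with a treatment median of -0.0415.

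Chosen after the data were seen, fixed sub-cluster weights gave a macrophage/monocyte-like age median of -0.19 with 1 member higher for treatment, and in FAP-like cells 0 higher for age and 5 for treatment. Without the interferon-led sub-cluster FAP-like cells had 1 higher for treatment.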
